A study of Citrus junos with 4 samples.

Results

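Abscisic acid (ABA) is the hormone with which plants close stomata and slow growth when water is short. The genes described here are those whose annotation names a step of ABA synthesis, breakdown or signalling: 153 of the 29406 genes in an RNA-seq table of mature leaves of Ziyang xiangcheng (*Citrus junos*), a citrus used as a rootstock. They were found by words in the description that accompanies each gene, namely 9-cis-epoxycarotenoid, zeaxanthin epoxidase, abscisic-aldehyde oxidase, abscisic acid 8'-hydroxylase, abscisic acid receptor, protein phosphatase 2C, SRK2, SAPK and abscisic acid-insensitive 5. The study compared diploid seedlings (2×) with doubled diploid seedlings (4×) of this cultivar, which were untreated, about 1 year old and grown in a greenhouse. The doubled diploids carried the alleles of the diploid at the microsatellite loci examined. Mature leaves of 3 to 5 months from the upper shoot were taken in the morning. There were 2 libraries of each ploidy, named here 2×-1, 2×-2, 4×-1 and 4×-2, each pooled over the leaves of 4 plants, which hides the variation between single plants. The expression unit was RPKM, the reads of a gene scaled to its length and to the mapped reads of the library, which allows levels to be compared between genes per unit of length. It is relative to the library, so it holds nothing on RNA per cell, and in whole leaves fewer cells of a type and less RNA per cell cannot be told apart.

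In plants generally, ABA is made from carotenoids. Zeaxanthin epoxidase (ZEP) forms the epoxycarotenoid precursors in the plastid, 9-cis-epoxycarotenoid dioxygenase (NCED) cuts them in what is regarded as the rate-limiting step, and a short-chain dehydrogenase and abscisic-aldehyde oxidase (AAO) complete the hormone. The P450 enzymes of the CYP707A family, the ABA 8'-hydroxylases, start its breakdown. Signalling runs through inhibition: without ABA, the clade A protein phosphatases of type 2C keep the SnRK2 kinases off, and with ABA the PYR/PYL receptors bind these phosphatases, so that the kinases become active and phosphorylate bZIP transcription factors of the ABI5/AREB type and, in guard cells, ion channels.

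By role, the 153 genes comprised 18 of synthesis, 33 of breakdown, 8 of receptors, 70 phosphatases, 7 kinases and 17 bZIP factors. A description can list several similar proteins, so the names differ in how closely they match. In 106 genes the name that defines the role led the description once unspecific names were passed over, and in the other 47 it stood behind the name of another protein. These weaker matches were mostly other P450 enzymes in the breakdown group (25 of 33), and they are described apart. Of the 153 genes, 142 had reads in at least 1 library and 11 were listed at 0 in all 4. Genes averaging 1 RPKM or more were tested, which left 112 members. A count of 0 still allows up to 3 reads in a library, which is 0.314 to 0.338 RPKM for a transcript of 1 kb. This limit covers counting error only.

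The library totals behind the RPKM values, recovered from those values, ranged from 8874306 to 9545185 reads. They are below the numbers of mapped reads that the paper gives. Among all 16157 genes tested with limma, 64 were called higher and 160 lower in 4× at an adjusted p below 0.05. When the libraries were scaled to the median of ratios instead, the calls were 69 higher and 109 lower, and the median difference of all genes moved from -0.027 to 0.003 on the log2 scale. Leaf markers were high, the most abundant Rubisco small chain gene, Cs6g18680, lying between 5868 and 8077 RPKM. Of 6 root markers, 4 were under 1 RPKM, all casparian strip proteins among them. The other root markers, Cs1g18100 and Cs2g10860, both led by the name root hair defective, had means of 30.6 and 23.1 RPKM. Library 2×-1 had the lowest summed level of the 17 mesophyll markers, 15111 RPKM, against 18491 RPKM in 2×-2, 17810 RPKM in 4×-1 and 18049 RPKM in 4×-2. Of 14 genes described as xylem cysteine proteinases, 6 were tested, and 5 of these had the higher mean in 4×. Among them 2 were called, Cs2g27790 and Cs2g27860, beside 0.396% of all genes called higher. Cs8g01170 was lower, at 3.16 and 3.72 RPKM in 2× against 1.79 and 2.79 RPKM in 4×. The summed level of the 14 genes was 183 to 189 RPKM in 2× and 294 to 303 RPKM in 4×, while 8 of the 14 were under 1 RPKM.

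For most genes of ABA synthesis and signalling no difference between 2× and 4× was called, which with 2 libraries of each ploidy does not show equal levels. A phosphatase of the HAI type, a stress-responsive branch of clade A, rose in 4×, and a phosphatase outside clade A, annotated as protein phosphatase 2C 73, fell. No gene of synthesis, breakdown, the receptors, the kinases or the bZIP factors was called, either in this test or by limma voom on the recovered reads, which called 3 phosphatases (2.68% of the 112 members), beside 2.5% of all genes (0.873% higher and 1.63% lower in 4×). Thus 2 of the 112 tested members passed (1.79%), beside 1.39% of all genes tested (0.396% higher and 0.990% lower in 4×). At an unadjusted p below 0.05 there were 11 members higher and 12 lower in 4×, 23 in all (20.5%), beside 13.3% of all genes. In 54 of the 112 members (48.2%) the libraries of 4× and 2× did not overlap, 25 with 4× above and 29 with 4× below, beside 43.7% of all genes. The median difference of the members was 0.04 on the log2(RPKM + 0.5) scale, 4× minus 2×, and that of all genes was -0.03. All differences below are on this scale, which understates the change of genes with low RPKM.

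**Figure D1:**
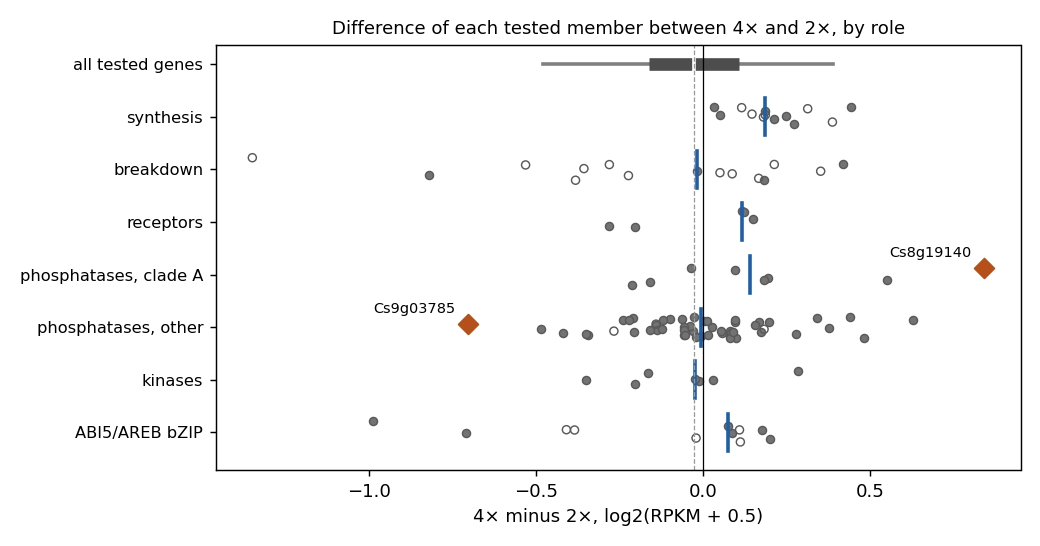
Difference between 4× and 2× on the log2(RPKM + 0.5) scale (x axis) for the 112 tested members by role (y axis); filled points have the role's name first in the description, open points name it later, orange diamonds are the 2 called genes, blue bars are the medians of a role, and the top row gives the central 90% (-0.48 to 0.39), the quartiles and the median (dashed line) of all 16157 genes. The 13 tested synthesis matches, 7 of them led by a defining name, all lie right of 0 within 0.03 to 0.44. The lowest gene led by a breakdown name is at -0.82. A weaker breakdown match, Cs1g25490, is at -1.35, and the lowest bZIP factor is at -0.99.

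The called phosphatases and the next 2 members by p lay on both sides of 0. Cs8g19140, which is annotated as protein phosphatase 2C 3 and was assigned to the HAI type by that name alone, was at 8.62 RPKM in 2×-1, 7.53 RPKM in 2×-2, 13.2 RPKM in 4×-1 and 16.6 RPKM in 4×-2. Both 4× libraries exceeded both 2× libraries, with means of 8.07 ± 0.771 RPKM in 2× and 14.9 ± 2.40 RPKM in 4× (SD, n = 2) and a difference of 0.84 (SE 0.15, adjusted p = 0.0378). The number 3 is also used for a gene described as a probable protein phosphatase, Cs2g12880, which was taken for the rice numbering and left outside clade A. Cs7g31880, the match to AHG3, a phosphatase that acts on ABA signalling in seeds and seedlings of *Arabidopsis*, was the most abundant clade A gene. Its levels were 96.1 and 79.4 RPKM in 2× against 131 and 125 RPKM in 4×, again without overlap. The difference, 0.55 (SE 0.12, adjusted p = 0.0636), fell short of the threshold, although the gene was called with a mean of at least 3 RPKM required (adjusted p = 0.0499) and by limma voom on the recovered reads (adjusted p = 0.0242). Over the 12 alternatives its adjusted p ranged from 0.00111 to 0.288.

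In the other direction, Cs9g03785 (protein phosphatase 2C 73) was at 32.1 and 25.4 RPKM in 2× and at 17.9 and 16.8 RPKM in 4×. The 4× libraries were both below the 2× libraries, and the difference was -0.70 (SE 0.14, adjusted p = 0.0431). The bZIP gene Cs6g14960, a match to ABI5, the factor that arrests growth of germinating *Arabidopsis* seedlings under ABA, had levels of 16.5 and 9.88 RPKM in 2× against 6.38 and 6.02 RPKM in 4×. Here 2×-1 was far above 2×-2, the 4× libraries lay close together below both, and the difference was -0.99 (SE 0.21, adjusted p = 0.0631). It was called with a mean of at least 3 RPKM required (adjusted p = 0.0462) and without 2×-2 (adjusted p = 0.0240), and its adjusted p ranged from 4.0e-06 to 0.334 over the 12 alternatives.

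**Figure D2:**
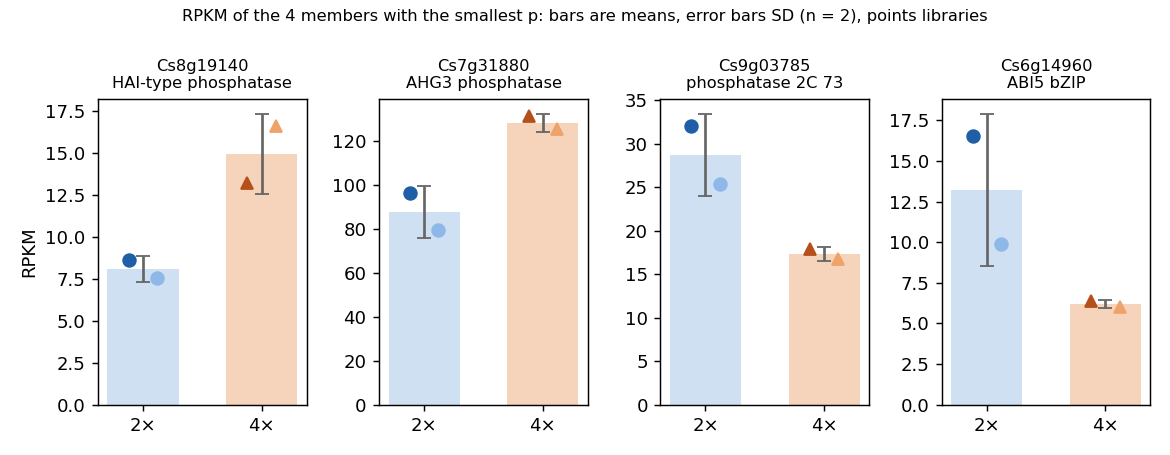
RPKM (y axis) of the 4 members with the smallest p in 2× and 4× (x axis); points are libraries, bars are means and error bars are SD (n = 2). The 4× libraries lie above the 2× libraries for Cs8g19140 (13.2 and 16.6 against 8.62 and 7.53 RPKM) and Cs7g31880, and below them for Cs9g03785 and Cs6g14960.

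The calls of Cs8g19140 and Cs9g03785 depended on single libraries. Without 2×-1, 2×-2 or 4×-2 the adjusted p of Cs8g19140 was 0.0703, 0.146 and 0.121, and that of Cs9g03785 was 0.185, 0.0523 and 0.107, while both were called without 4×-1. With no filter on low values, where 0 of 24073 genes were called, it was 0.271 and 0.277.

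For synthesis, 9 genes had a defining name: 5 ZEP, 3 NCED and 1 AAO gene. None was called, beside 1.39% of all genes, and 1 of the 7 tested genes had an unadjusted p below 0.05, beside 13.3% of all genes. ZEP was the most abundant step. Cs1g22620, the first of these genes, was at 191 and 234 RPKM in 2× against 229 and 253 RPKM in 4× and made up 66.8 to 69.7% of the summed level of the 9 genes in each library. 2×-1 was the lowest library, the other 3 lay close together, and the difference was 0.18 (SE 0.13, adjusted p = 0.620). Cs5g07990 followed with 46.0 and 53.0 RPKM in 2× against 52.9 and 61.9 RPKM in 4×, a difference of 0.21 (SE 0.12, adjusted p = 0.515). Cs2g26760 had 35.3 and 39.5 RPKM in 2× against 48.9 and 41.9 RPKM in 4×, and it was the synthesis gene of this group without overlap between ploidies, with a difference of 0.27 (SE 0.12, adjusted p = 0.362). The ranges of Cs5g07990 and Cs2g26760 over the 4 libraries overlapped, so their order is not fixed. The other ZEP genes were low, Cs1g04900 with a mean of 1.58 RPKM and a difference of 0.03 (SE 0.31, adjusted p = 0.978), and orange1.1t04051 with 1.32 RPKM and 0.25 (SE 0.29, adjusted p = 0.798).

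A single NCED gene was clearly expressed. Cs5g14370, annotated as NCED1, was at 7.24 RPKM in 2×-1, 4.49 RPKM in 2×-2, 6.57 RPKM in 4×-1 and 9.62 RPKM in 4×-2. The replicates of each ploidy were far apart and the groups overlapped, with means of 5.87 ± 1.94 RPKM in 2× and 8.10 ± 2.15 RPKM in 4× (SD, n = 2). The difference of 0.44 (SE 0.24, adjusted p = 0.482) had a 95% interval from -0.09 to 0.98, which includes 0. Of the other NCED genes, Cs2g03270 had at most 0.0902 RPKM in any library and Cs9g11260 was listed at 0 in all 4. Cs8g13780, the gene led by abscisic-aldehyde oxidase, was also low at 2.82 and 2.80 RPKM in 2× against 2.39 and 3.57 RPKM in 4×, with no separation of the ploidies and a difference of 0.05 (SE 0.23, adjusted p = 0.957).

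The remaining 9 synthesis matches had another name first. Cs7g01710 and Cs7g01700, whose identifiers follow each other, were led by carotenoid cleavage dioxygenase 1, an enzyme that forms volatile apocarotenoids and is not a step of ABA synthesis. Cs7g01710 was the most abundant of all 153 genes at 575 and 687 RPKM in 2× against 663 and 700.1 RPKM in 4×, with a difference of 0.12 (SE 0.15, adjusted p = 0.827). Cs7g01700 was at 31.1 and 40.02 RPKM in 2× against 42.1 and 50.9 RPKM in 4×, without overlap, with a difference of 0.39 (SE 0.14, adjusted p = 0.272). Cs7g14820, led by carotenoid cleavage dioxygenase 4, had a mean of 19.4 RPKM and a difference of 0.15 (SE 0.20, adjusted p = 0.838). Another 3 genes, led by aldehyde oxidase names, listed AAO further on. They were Cs8g13770, with 21.3 RPKM and a difference of 0.19 (SE 0.12, adjusted p = 0.585), Cs8g13760, with 15.4 RPKM and 0.18 (SE 0.13, adjusted p = 0.616), and Cs2g30140, with 5.67 RPKM and 0.31 (SE 0.18, adjusted p = 0.520). The identifiers of Cs8g13760, Cs8g13770 and Cs8g13780 are consecutive, and reads could be split between such copies if their sequences are close.

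In all 13 tested synthesis matches the 4× mean was the higher on the log scale, as it was in 44.4% of all genes, and the median difference was 0.19, beside -0.03 of all genes. The 4× libraries lay above both 2× libraries in 5 of the 13 (17.5% of all genes did so) and below them in none (26.2% of all genes). The direction held in all 13 under median-of-ratios scaling. It held in 11 of 13 without 2×-1 or without 4×-2, in 12 of 13 without either of the others, and the median was then between 0.11 and 0.30. The summed level of the 9 genes with a defining name was 286 and 336 RPKM in 2× and 343 and 373 RPKM in 4×, lowest in 2×-1, which also had the lowest summed mesophyll markers. Of the 15 tested mesophyll markers 13 had the higher mean in 4×, beside 44.4% of all genes, with a median difference of 0.23. Among them 1 was called, lower in 4× (6.67%, beside 0.990% of all genes). It was Cs4g03580, a Rubisco small chain gene with a mean of 5.27 RPKM. The part of the mesophyll markers in the synthesis values was not tested.

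For breakdown, the 8 genes named first as ABA 8'-hydroxylases (CYP707A) lay on both sides of 0. Of the 4 tested, none was called and 2 had an unadjusted p below 0.05, beside 1.39% and 13.3% of all genes. Cs8g18780 was at 17.5 and 23.6 RPKM in 2× against 24.6 and 30.2 RPKM in 4×. Both 4× libraries were above both 2× libraries, by little in 4×-1, and the difference was 0.42 (SE 0.16, adjusted p = 0.287). Cs6g19380 had the opposite pattern at a lower level, 3.5 and 2.74 RPKM in 2× against 1.61 and 1.47 RPKM in 4×, without overlap and with a difference of -0.82 (SE 0.23, adjusted p = 0.141). Cs3g23530, at 21.1 and 19.6 RPKM in 2× against 18.9 and 21.3 RPKM in 4×, and Cs8g05940, with a mean of 8.88 RPKM, differed by -0.02 (SE 0.12, adjusted p = 0.969) and 0.18 (SE 0.15, adjusted p = 0.674). The levels of Cs8g18780 and Cs3g23530 overlapped, and these genes, Cs8g05940 and Cs6g19380 stood in separate ranges below each other. Cs3g21210 did not pass the filter, at 0.181 to 0.485 RPKM, and Cs1g22690, Cs1g22700 and Cs5g14570 were listed at 0 in all libraries. The summed level of the 8 genes was 50.6 and 54.8 RPKM in 2× and 54.0 and 63.7 RPKM in 4×, so the ploidies overlapped. Under median-of-ratios scaling Cs3g23530 changed sign and lay on the positive side.

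The other 25 breakdown matches were P450 enzymes led by other names, among them ent-kaurenoic acid hydroxylases of gibberellin synthesis and brassinosteroid enzymes, and 11 of them were tested. None was called, and 3 had an unadjusted p below 0.05, beside 1.39% and 13.3% of all genes. Cs7g22830, led by ent-kaurenoic acid hydroxylase, was at 13.2 and 13.1 RPKM in 2× against 9.57 and 8.32 RPKM in 4×, a difference of -0.53 (SE 0.14, adjusted p = 0.109). Its neighbours by identifier, Cs7g22820 and Cs7g22840, differed by -0.28 (SE 0.15, adjusted p = 0.490) and 0.17 (SE 0.27, adjusted p = 0.870). Cs1g25490, led by CYP722A1, was near the filter at 1.5 and 1.96 RPKM in 2× against 0.0713 and 0.828 RPKM in 4×. The 4× libraries were far apart, the lower of them resting on 1 read, and the difference was -1.35 (SE 0.41, adjusted p = 0.170). Cs7g31170, led by a brassinosteroid enzyme, was at 35.1 and 28.3 RPKM in 2× against 38.7 and 42.1 RPKM in 4×, with a difference of 0.35 (SE 0.13, adjusted p = 0.256). The remaining 6 genes, Cs1g02670, Cs9g03240, Cs1g18360, Cs2g24600, Cs1g24010 and Cs8g20910, had means from 1.27 RPKM (Cs8g20910) to 27.7 RPKM (Cs1g02670) and differences from -0.38 (Cs2g24600) to 0.21 (Cs1g24010), and their adjusted p-values were at least 0.520.

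Of the 8 receptor matches, 7 were led by the name of a PYR/PYL protein and 5 were tested. None was called or had an unadjusted p below 0.05, beside 1.39% and 13.3% of all genes. A pair of genes carried the family. orange1.1t00478, the match to PYL9, was at 85.1 and 77.2 RPKM in 2× against 85.4 and 91.2 RPKM in 4×, and Cs5g02360, the match to PYL8, was at 58.1 and 65.9 RPKM in 2× against 53.4 and 53.9 RPKM in 4×. Together they made up 96.1 to 96.7% of the summed receptor level in each library. The PYL9 match differed by 0.12 (SE 0.11, adjusted p = 0.701), and its groups overlapped. The PYL8 match was lower in both 4× libraries, with a difference of -0.20 (SE 0.11, adjusted p = 0.472) and a 95% interval from -0.45 to 0.04. In *Arabidopsis* PYL8 and PYL9 belong to the receptors that are monomers before they bind ABA, and PYR1 is a dimer before binding.

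The other receptors were low. orange1.1t01026, the match to PYR1, was at 3.06 and 3.31 RPKM in 2× against 2.63 and 2.43 RPKM in 4×, both 4× libraries being the lower, with a difference of -0.28 (SE 0.21, adjusted p = 0.630). Cs7g30500 (PYL4) and Cs4g18640 (PYL2) had means of 1.30 and 1.15 RPKM, their ranges overlapped each other, and they differed by 0.15 (SE 0.32, adjusted p = 0.900) and 0.12 (SE 0.30, adjusted p = 0.919). Another PYL2 match, Cs1g18470, had reads in 4×-2 alone (0.374 RPKM), and another PYL8 match, Cs9g18410, was listed at 0 in all libraries. The eighth match, Cs7g08260, was led by an MLP-like protein of the same fold and was under 1 RPKM. The summed level of the 7 receptors was 149 and 148 RPKM in 2× and 143 and 151 RPKM in 4×, so the 4× libraries enclosed those of 2×.

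**Figure D3:**
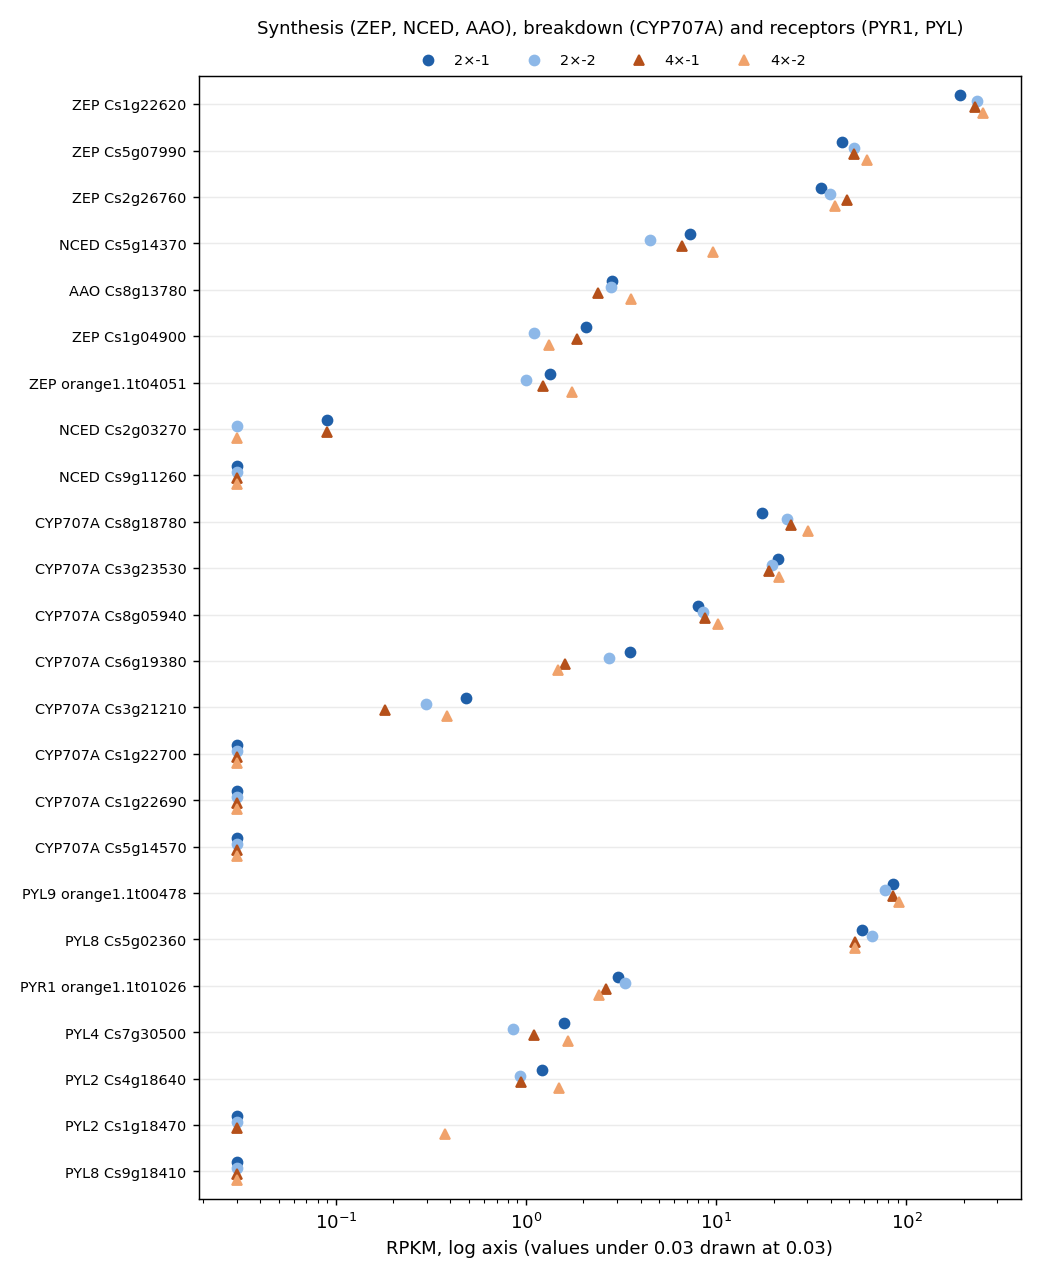
RPKM on a log axis (x axis) of the 24 genes led by a name of synthesis, breakdown or the receptors (y axis, ordered by mean level within each role), 1 point per library with circles for 2× and triangles for 4×; values under 0.03, including 0, are drawn at 0.03. In each role 1 or 2 genes stand well above the rest: a ZEP gene at 191 to 253 RPKM and the PYL9 and PYL8 matches at 53.4 to 91.2 RPKM, while the expressed NCED gene lies at 4.49 to 9.62 RPKM.

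Clade A of the phosphatases, the co-receptors of ABA, had 9 genes by their annotated names, of which 8 were tested. The called HAI-type gene Cs8g19140 and the AHG3 match Cs7g31880, described above, had the largest differences. Of the other 6, a gene was higher and another lower in both 4× libraries, and in 4 the ploidies overlapped. Thus 4 of the 8 were without overlap (50%), beside 43.7% of all genes, and 1 was called (12.5%), beside 1.39% of all genes. Cs1g17890 and Cs4g05690 matched HAB1, a broad inhibitor of ABA responses in *Arabidopsis*. The first was at 69.8 and 64.98 RPKM in 2× against 59.1 and 72.9 RPKM in 4× (difference -0.04 (SE 0.12, adjusted p = 0.939)), and the second at 43.9 and 41.2 RPKM in 2× against 46.3 and 51.3 RPKM in 4× (difference 0.20 (SE 0.11, adjusted p = 0.494)). Only the second was higher in both 4× libraries.

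Cs4g15360 and Cs4g14980 matched ABI1 and ABI2, the phosphatases first found through ABA-insensitive *Arabidopsis* mutants. Cs4g15360 was at 26.2 and 19.6 RPKM in 2× against 23.9 and 27.9 RPKM in 4×, with a difference of 0.18 (SE 0.15, adjusted p = 0.680). Cs4g14980 was at 12.3 and 9.55 RPKM in 2× against 11.2 and 11.97 RPKM in 4×, with a difference of 0.10 (SE 0.15, adjusted p = 0.865). Neither separated the ploidies, and in both 2×-2 was the lowest library. Cs1g15750, the match to HAB2, was lower in both 4× libraries at 8.25 and 8.33 RPKM in 2× against 6.96 and 7.20 RPKM in 4×, with a difference of -0.21 (SE 0.14, adjusted p = 0.596). Its description names protein phosphatase 2C 6 first, which was passed over in the grouping, and 2C 7, the number of HAB2, second. Cs9g16360, the match to AHG1, a phosphatase of *Arabidopsis* seeds, was low at 3.12 and 2.07 RPKM in 2× against 1.82 and 2.72 RPKM in 4× and differed by -0.16 (SE 0.27, adjusted p = 0.871), and the neighbouring AHG1 match Cs9g16370 was under 0.133 RPKM in all libraries.

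The order of levels within clade A was AHG3, HAB1 (Cs1g17890, then Cs4g05690), ABI1, the HAI type, ABI2, HAB2 and AHG1. Neighbours in this order had ranges over the 4 libraries that did not overlap, except the HAI type and ABI2. The summed level of the 9 genes was 268 and 233 RPKM in 2× and 294 and 316 RPKM in 4×, so that both 4× libraries were above both 2× libraries. The AHG3 match alone made up 35.8 and 34.1% of it in 2× and 44.6 and 39.7% in 4×. The median difference of the 8 tested genes was 0.14, with 5 genes on the positive side, and it was -0.05 with 3 genes on the positive side without 2×-2. The summed level of the xylem cysteine proteinases also was higher in 4× (183 to 189 against 294 to 303 RPKM), although the tested gene Cs8g01170 was lower. The part of these genes in the clade A values was not tested.

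Outside clade A, 61 phosphatases were found by name, 57 of them with that name in the lead, and 53 were tested. A single gene was called, Cs9g03785, beside 1.39% of all genes. At an unadjusted p below 0.05 there were 9 genes, 5 higher and 4 lower in 4×, beside 5.14% and 8.16% of all genes. Their median difference was -0.01, 26 of the 53 being positive, and 30 under median-of-ratios scaling. The 4× libraries were above both 2× libraries in 11 genes (17.5% of all genes) and below in 13 (26.2% of all genes). Most of these phosphatases have no established part in ABA signalling.

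The 3 most abundant differed little. Cs7g06490, annotated as protein phosphatase 2C 60, was at 202 and 194 RPKM in 2× against 195 and 195 RPKM in 4×, with a difference of -0.02 (SE 0.11, adjusted p = 0.964) that changed sign under median-of-ratios scaling. orange1.1t01278 matched protein phosphatase 2C 57, the thylakoid phosphatase that acts on light-harvesting proteins in *Arabidopsis*. It was at 152 and 183 RPKM in 2× against 182 and 194 RPKM in 4×, lowest in 2×-1 as were the mesophyll markers, with a difference of 0.17 (SE 0.12, adjusted p = 0.616). Cs9g18020, annotated as protein phosphatase 2C 8, had 111 and 110.0 RPKM in 2× against 91.8 and 122 RPKM in 4×, its 4× libraries lying on either side of those of 2×, and a difference of -0.06 (SE 0.14, adjusted p = 0.904).

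Of the genes with an unadjusted p below 0.05, 5 were higher in 4×. Cs9g04470 (protein phosphatase 2C 40) was at 85.9 and 87.8 RPKM in 2× against 104 and 117 RPKM in 4×, a difference of 0.34 (SE 0.11, adjusted p = 0.180). Cs7g30900 (protein phosphatase 2C 2) was at 34.4 and 28.2 RPKM in 2× against 44.9 and 42.4 RPKM in 4×, a difference of 0.48 (SE 0.12, adjusted p = 0.104). Cs9g01660 (protein phosphatase 2C 13) was at 30.5 and 29.5 RPKM in 2× against 44.0 and 38.0 RPKM in 4×, a difference of 0.44 (SE 0.11, adjusted p = 0.110). In these 3 genes the replicates of each ploidy were closer to each other than to the other ploidy. Cs8g20790 (protein phosphatase 2C 26) and orange1.1t02237 (protein phosphatase 2C 68) differed by 0.28 (SE 0.11, adjusted p = 0.326) and 0.38 (SE 0.16, adjusted p = 0.357).

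Besides Cs9g03785, lower in 4× were Cs3g14770, Cs5g30740 and Cs4g01140. Cs3g14770 shares the annotation of Cs9g03785, protein phosphatase 2C 73, and was at 41.0 and 38.8 RPKM in 2× against 34.6 and 28.4 RPKM in 4×. It pointed the same way, with a difference of -0.34 (SE 0.12, adjusted p = 0.247). Cs5g30740 (protein phosphatase 2C 51) had 9.05 and 9.0 RPKM in 2× against 7.08 and 6.20 RPKM in 4×, the 2× libraries being nearly equal and above both of 4×, and a difference of -0.42 (SE 0.15, adjusted p = 0.248). Cs4g01140 (protein phosphatase 2C 27) had a mean of 3.54 RPKM and a difference of -0.49 (SE 0.20, adjusted p = 0.318). The other tested phosphatases ranged from -0.35 in Cs8g20420 to 0.63 in Cs5g19840, the latter a gene of 2.53 RPKM whose 4× libraries were at 4.29 and 2.19 RPKM.

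All 7 SnRK2 kinases were led by the name of the family and all were tested. None was called, and 1 had an unadjusted p below 0.05, beside 1.39% and 13.3% of all genes. In *Arabidopsis* the main kinases of ABA signalling are those of subclass III. Their matches were Cs1g23060 (SAPK10) and Cs5g34270 (SRK2E, the OST1 kinase of guard cells). Cs1g23060 was at 55.8 and 52.6 RPKM in 2× against 55.6 and 51.8 RPKM in 4×, and Cs5g34270 at 36.8 and 34.6 RPKM in 2× against 35.1 and 35.1 RPKM in 4×. The ploidies overlapped in both, and they differed by -0.01 (SE 0.10, adjusted p = 0.974) and -0.02 (SE 0.10, adjusted p = 0.956), with 95% intervals from -0.25 to 0.22 and from -0.26 to 0.21. The sign of both differences changed under median-of-ratios scaling.

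Outside subclass III, the most abundant kinase was Cs1g19910, which is named after rice SAPK2. It was at 220.1 and 224 RPKM in 2× against 169 and 179 RPKM in 4×, so that the replicates were close together and the 4× libraries lay clearly lower. The difference, -0.35 (SE 0.11, adjusted p = 0.176), did not pass over all genes, and its adjusted p was between 0.127 and 0.409 in the alternatives. Cs5g07700, also named SAPK2, had 73.8 and 53.1 RPKM in 2× against 76.9 and 75.8 RPKM in 4×, with 2×-2 apart from the other 3 libraries and a difference of 0.28 (SE 0.15, adjusted p = 0.460). Cs1g19380 (SRK2H) had 88.9 and 81.5 RPKM in 2× against 69.9 and 77.8 RPKM in 4×, both 4× libraries being lower, and a difference of -0.20 (SE 0.11, adjusted p = 0.477). The remaining kinases, Cs3g03720 (SRK2A) and Cs3g18000 (SAPK2), had means of 23.3 and 12.2 RPKM and differences of -0.16 and 0.03. Of the 7 kinases 5 were on the negative side, and 3 under median-of-ratios scaling. The 4× libraries were below both 2× libraries in 3 of the 7 kinases (26.2% of all genes) and above in 1 (17.5% of all genes). The summed level was 513 and 482 RPKM in 2× and 441 and 454 RPKM in 4×, of which Cs1g19910 made up 42.9 and 46.5% in 2× and 38.4 and 39.5% in 4×.

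**Figure D4:**
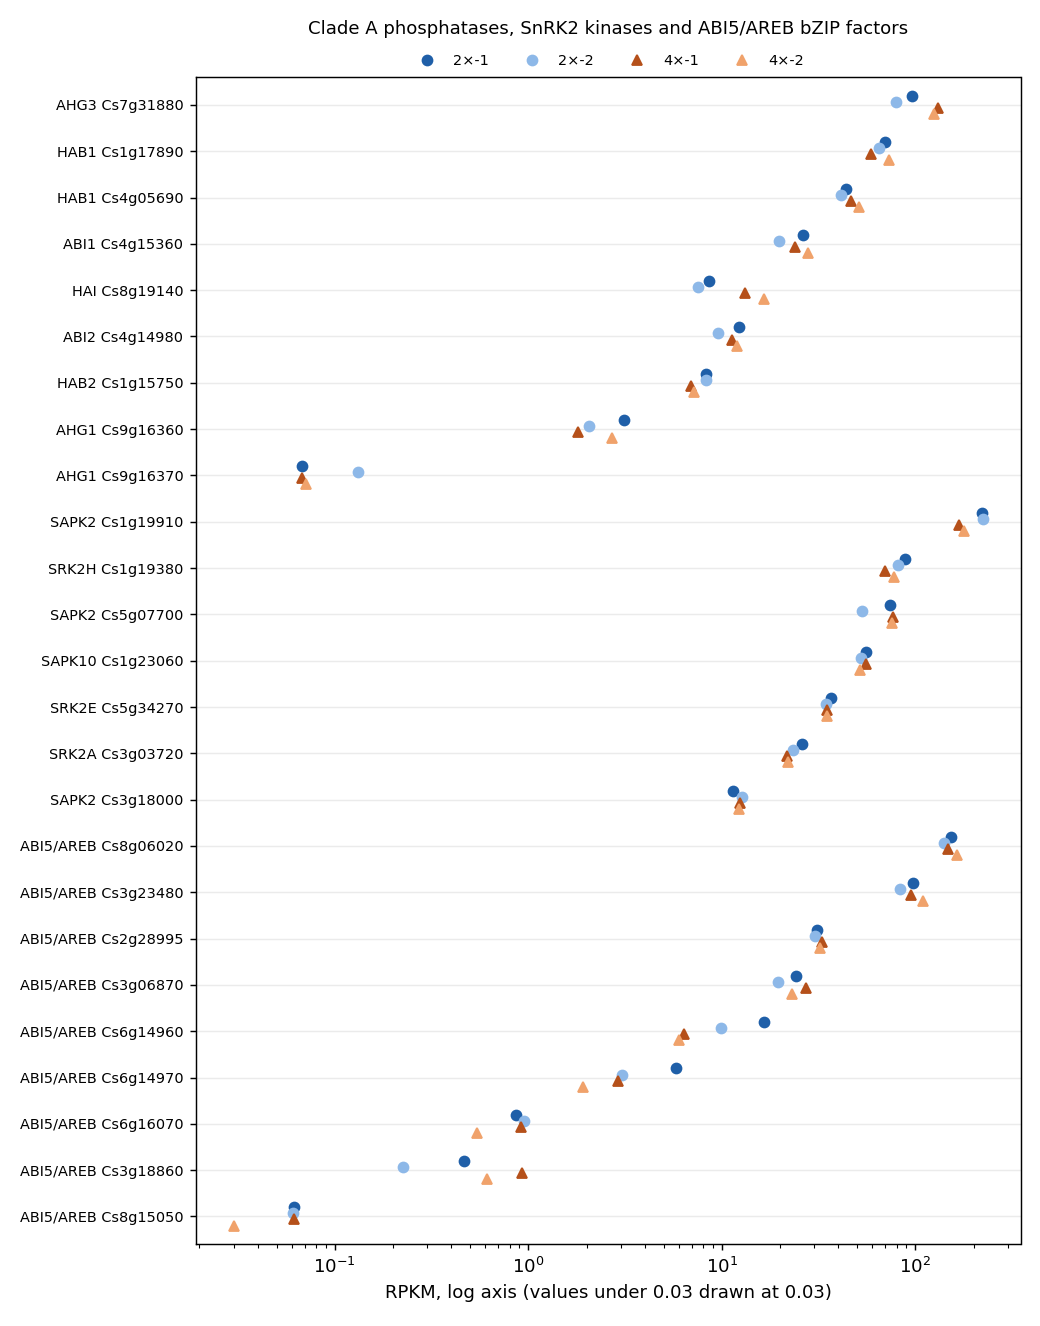
RPKM on a log axis (x axis) of 9 clade A phosphatases, 7 SnRK2 kinases and 9 ABI5/AREB bZIP genes (y axis, ordered by mean level within each role), 1 point per library with circles for 2× and triangles for 4×; values under 0.03 are drawn at 0.03. The symbols of 2× and 4× are apart for AHG3 Cs7g31880, HAI Cs8g19140, SAPK2 Cs1g19910 and ABI5/AREB Cs6g14960, and close together for the subclass III kinases SAPK10 Cs1g23060 and SRK2E Cs5g34270.

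Of the 17 bZIP matches, 9 were grouped under ABI5 or the ABA-responsive element binding factors (AREB). In Cs6g14970 and Cs3g18860 the ABI5 name followed an unspecific one, stress-related bZIP factor, and in the other 7 a name of this type came first. Of the 9 genes 6 were tested. None of them was called, with 2 at an unadjusted p below 0.05, beside 1.39% and 13.3% of all genes. Leaves expressed mainly AREB genes. Cs8g06020 and Cs3g23480, both named AREB2, were at 154 and 142 RPKM in 2× against 147 and 164 RPKM in 4× and at 97.1 and 83.5 RPKM in 2× against 94.7 and 109 RPKM in 4×. They differed by 0.07 (SE 0.11, adjusted p = 0.858) and 0.18 (SE 0.12, adjusted p = 0.605), and the ploidies overlapped in both. Cs2g28995, led by the name of an ABI5-like protein, and Cs3g06870, led by that of an ABA response element binding factor, had means of 31.7 and 23.5 RPKM and differences of 0.09 (SE 0.10, adjusted p = 0.814) and 0.20 (SE 0.14, adjusted p = 0.615). Of the 6 genes, Cs2g28995 was the one whose 4× libraries were both above those of 2×, by a narrow margin.

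Cs6g14960, given above, and Cs6g14970 have consecutive identifiers. Both lay lower in level than the other tested genes of the ABI5/AREB group and on the other side of 0. Every bZIP match was found by the ABI5 name in its description, so that name does not set these genes apart. Cs6g14970 was at 5.77 and 3.04 RPKM in 2× against 2.92 and 1.93 RPKM in 4×. As in Cs6g14960, 2×-1 was well above 2×-2 and both 4× libraries were below both of 2×, with a difference of -0.71 (SE 0.29, adjusted p = 0.331). The recovered reads of these genes were few, 17 to 49 per library for Cs6g14960 and 20 to 63 for Cs6g14970, where a factor shared by the counts and the gene length would make them a multiple of that. The number of reads that could come from either neighbour was not tested. The untested genes of the ABI5/AREB group (Cs6g16070, Cs3g18860 and Cs8g15050) were below 1 RPKM in all libraries.

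Of the 8 bZIP matches with another leading name, 5 were tested. orange1.1t01148 was at 24.3 and 19.9 RPKM in 2× against 15.3 and 18.3 RPKM in 4×, both 4× libraries being lower, with a difference of -0.38 (SE 0.14, adjusted p = 0.266). Cs6g15200, led by transcription factor HBP-1a, had a mean of 4.21 RPKM and a difference of -0.41 (SE 0.18, adjusted p = 0.373). Cs7g07550, Cs3g21410 and Cs3g26540 differed by 0.11, -0.02 and 0.11, with adjusted p-values of at least 0.794.

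A list of other pathway genes outside the search words held 38 genes, of which 23 were tested and none was called by limma on RPKM. At an unadjusted p below 0.05 there were 4 higher and 1 lower in 4×, beside 5.14% and 8.16% of all genes, and the median difference was -0.05. Cs6g01180 was led by the name xanthoxin dehydrogenase, the short-chain dehydrogenase that makes abscisic aldehyde, and names of other enzymes followed. This match was at 87.3 and 92.7 RPKM in 2× against 111 and 112 RPKM in 4×, without overlap and with a difference of 0.30 (SE 0.10, adjusted p = 0.215). Cs7g11560, an AFP gene of the family whose *Arabidopsis* members restrain ABI5, was at 10.2 and 8.39 RPKM in 2× against 13.2 and 15.6 RPKM in 4× (difference 0.61 (SE 0.15, adjusted p = 0.0996)). The other tested matches of this family did not share this. The most abundant, orange1.1t03835, differed by -0.16 (SE 0.11, adjusted p = 0.583). Cs6g22230 differed by -0.27 (SE 0.16, adjusted p = 0.520), and Cs5g27620, whose ploidies overlapped, by 0.18 (SE 0.22, adjusted p = 0.806). In the part of this list that holds genes induced by ABA and effectors, 4 of the 10 tested genes were on the positive and 6 on the negative side, with a median of -0.02. The largest positive differences were those of matches to ATHB-7 and NAC72, transcription factors that ABA induces in *Arabidopsis*. orange1.1t00544, an ATHB-7 match, was at 49.1 and 33.9 RPKM in 2× against 66.2 and 74.3 RPKM in 4× (difference 0.77 (SE 0.16, adjusted p = 0.0554)), and Cs1g06760, a NAC72 match, was at 77.3 and 55.1 RPKM in 2× against 97.5 and 107 RPKM in 4× (difference 0.64 (SE 0.15, adjusted p = 0.0838)). In both genes 2×-2 was the lowest library and both 4× libraries were above 2×. The other tested matches of the same names were lower in level and did not share this, the ATHB-7 match Cs5g01480 differing by 0.07 (SE 0.17, adjusted p = 0.919) and the NAC72 matches Cs3g01360 and Cs5g31140 by -0.36 (SE 0.18, adjusted p = 0.436) and -0.27 (SE 0.28, adjusted p = 0.762). The ATHB-12 match orange1.1t02547 differed by -0.28 (SE 0.19, adjusted p = 0.601) and the LTI65 match Cs9g17250 by -0.05 (SE 0.13, adjusted p = 0.923). Limma voom on the recovered reads called orange1.1t00544, Cs1g06760 and Cs7g11560 higher in 4× (adjusted p = 0.0107, 0.0245 and 0.0428). That test called 0.873% of all genes higher.

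Among the effectors of guard cells, Cs5g09820, the match to the anion channel SLAC1 that ABA opens in guard cells, was at 3.51 and 4.53 RPKM in 2× against 3.44 and 4.61 RPKM in 4× and differed by -0.00 (SE 0.21, adjusted p = 0.998). Cs5g02940, the match to the NADPH oxidase RbohF, was at 9.48 and 8.86 RPKM in 2× against 6.65 and 7.24 RPKM in 4×, both 4× libraries being lower, with a difference of -0.38 (SE 0.15, adjusted p = 0.294). The ABA exporter match Cs3g22340 (ABC transporter G family member 25) and the match to the transcription factor ABI3 were under 1 RPKM, and the match to ABI4 was listed at 0. Of the 21 guard cell markers 5 were under 1 RPKM, among them SPEECHLESS (Cs9g18490), listed at 0, and KAT1 (Cs2g03470), at 0.197 RPKM. Most of the list were matches to the kinase HT1, a name shared by many related kinases, with means from 1.29 RPKM (Cs2g02380) to 96.3 RPKM (Cs7g07720). The summed level of the 21 genes was 397 to 400.2 RPKM in 2× and 380.3 to 397 RPKM in 4×.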

How the data were processed

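RNA-seq libraries of mature leaves were compared between 2× and 4× (2 pools each). The authors removed low-quality reads, aligned the rest to the *C. sinensis* genome with TopHat2 2.0.9 and deposited RPKM values computed from uniquely mapped reads. The submitters' processing notes also list Bowtie2 2.0.6, HTSeq and DESeq 1.10.1. The gene annotation version was not given in the sources used here, nor whether strand was used in counting. Reads came from another species than the genome, so diverged genes and near-identical copies have less certain values. No per-sample column was left unused. Gene positions and sequences are not used here.

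Whole reads were recovered from the RPKM values of all 24073 detected genes (100%, tolerance 0.001 reads, gene lengths of 60 to 30000 bp), up to a factor shared by length and counts. Totals were 9324856, 9545185, 9363285 and 8874306 reads, of which 97.9% were recovered in genes.

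Values were transformed to log2(RPKM + 0.5), and 16157 genes averaging 1 RPKM or more entered a two-sided limma test (limma 3.58.1, R 4.3.3, moderated with a mean trend), with Benjamini-Hochberg adjustment over all of them. An adjusted p below 0.05 was a call. The study used a count test, which was replaced because the deposited unit is RPKM. Simulated data were also run through limma and voom, and no result given here rests on them. Python 3.11.15 was used for the other steps. Alternatives were pseudocounts of 0.1 and 1, no filter, a mean of at least 3 RPKM, median-of-ratios scaling, robust moderation, a replicate block, omission of each library, and limma voom on recovered reads.

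Named are every tested gene of synthesis, breakdown, receptors and bZIP, clade A phosphatases, subclass III kinases, the 3 most abundant other phosphatases and any other member with an unadjusted p below 0.05; a few others are named after their values were seen. The members and lists were chosen with earlier results of these data known.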

Additional observations from a re-analysis of the deposited data

How the results depend on the processing

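Of the results for single members and roles, compared under 12 alternatives, 831 values moved by less than the replicate SD or kept their call, 13 moved by more, 12 gained a call and 8 lost it, and none reversed a call. The 8 lost calls were those of Cs8g19140 and Cs9g03785 given above. Without a filter on low values 0 of 24073 genes and 0 members were called, with 2438 genes and 19 members at an unadjusted p below 0.05. With a mean of at least 3 RPKM required, 4 of 96 members were called, Cs6g14960 and Cs7g31880 in addition, beside 267 of 13527 genes. Limma voom on the recovered reads called 404 genes (2.5%). Leaving out a library gave 77 to 264 calls over all genes and 1 or 2 among the members, namely Cs7g31880 without 2×-1, Cs6g14960 without 2×-2, Cs1g25490 without 4×-2 (adjusted p = 0.0366) and both main calls without 4×-1. In these fits the lone library of a ploidy is assumed to vary like the other group. The sample titles do not say whether the replicate numbers pair the samples. The deviations of 2×-1 and 4×-1 from their group means correlated at -0.05 over genes. This value over all genes cannot decide whether some genes shared a replicate effect. With the replicate number as a block, 832 genes and 8 members were called, the 8 including both main calls. The receptor median (0.12) was -0.04 with a mean of at least 3 RPKM required, 0.19 without 2×-1, -0.11 without 2×-2 and -0.12 without 4×-2. The matches to PYL4 and PYL2 and the low ZEP genes Cs1g04900 and orange1.1t04051 rested on 11 to 31 reads per library, which limits their values.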

Other observations

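Some genes of these families fell under the filter of 1 RPKM and were not tested. Chosen after their values were seen, Cs6g06290, annotated as protein phosphatase 2C 4, was at 1.42 and 1.44 RPKM in 2× against 0.366 and 0.497 RPKM in 4×, and Cs7g16950, annotated as an HVA22 protein, a family named for induction by ABA in barley, was at 1.13 and 0.967 RPKM in 2× against 0.564 and 0.446 RPKM in 4×. In both genes the 4× libraries were the lower.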
